A study of Mus musculus with 12 samples.

Results

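The 8 genes described here are the mouse oligoadenylate synthetase (OAS) genes Oas1a, Oas1b, Oas1c, Oas1g, Oas2, Oas3, Oasl1 and Oasl2. They were chosen by symbol from the 22561 genes of the count table and were followed across its 4 conditions, with other genes of the 2-5A pathway and of interferon signalling described beside them as pathway genes rather than as members. Follicular (FO) B cells were sorted from the spleen of C57BL6 mice aged 10 weeks and were left unstimulated or were stimulated for 12 h with IFNα, with CpG, or with CpG + IFNα, with 3 samples in each group. By the study's methods the sort gate used B220hi, AA4.1-, CD23+ and CD21mid among its markers. IFNα is a type I interferon, and CpG is an oligodeoxynucleotide that activates TLR9, the endosomal sensor of unmethylated DNA. The groups served to find what IFNα adds to the response of FO B cells to CpG. The text used here does not say whether the unstimulated cells were also kept in culture, so that the effect of culture and that of a stimulus cannot be told apart in comparisons with them. The labels number the samples but do not say whether they came from separate mice or cultures, and all p-values measure the spread between these samples.

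OAS proteins are nucleotidyltransferases that sense double-stranded RNA, a frequent product of viral replication. When they bind it they join ATP into short chains called 2-5A, a second messenger of the antiviral response. OAS genes are classical interferon-stimulated genes. Type I interferon acts through the receptor IFNAR and the kinases JAK1 and TYK2 to form ISGF3, a transcription factor complex that holds STAT2 and IRF9 and binds interferon-stimulated response elements in their promoters.

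All members lie on chromosome 5 (GRCm38, GENCODE M21). Oasl2 (chr5:114896936-114912234, plus strand) and Oasl1 (chr5:114923240-114937915, plus strand) form a cluster of 40.98 kb. The other 6 members span 177.189 kb. They are Oas2 (chr5:120730333-120749853, minus), Oas3 (chr5:120753098-120777661, minus), Oas1c (chr5:120800194-120812514, minus), Oas1b (chr5:120812635-120824163, plus), Oas1g (chr5:120876142-120887613, minus) and Oas1a (chr5:120896256-120907521, minus). Oas1c and Oas1b stand head to head with 120 bases between their annotated starts. The annotation lists Oas1b as a polymorphic pseudogene and the other members as protein coding.

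The core of the interferon-stimulated response element was searched for as GAAANNGAAA, on either strand, in RefSeq promoters of GRCm38.p6 that run from 250 bases before to 50 bases after a gene's start. Of the 6 members with an entry, 4 held a match, against 1131 of all 32851 promoters (3.44%). The windows are shown because they place the 4 matches side by side, each as 30 bases 5′ to 3′ on the strand of its gene, with the matched bases in capitals.
Oas3 (chr5:120777715-120777744, minus): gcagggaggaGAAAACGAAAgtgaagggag
Oas1c (chr5:120812606-120812635, minus): atgggacTTTCAGTTTCCATTTCccgggaa
Oas1g (chr5:120887609-120887638, minus): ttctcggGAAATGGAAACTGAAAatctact
Oas1a (chr5:120907523-120907552, minus): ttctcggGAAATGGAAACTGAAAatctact
The Oas1a and Oas1g windows were the same in all 30 bases. Each held 2 overlapping matches on the strand of the gene, of which the first began at position -20 from the RefSeq start in Oas1a and at -18 in Oas1g. The Oas1c window held 2 overlapping matches on the opposite strand, and the reverse complement of its 16 capital bases was the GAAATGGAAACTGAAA of Oas1a and Oas1g. The 5′ end of this window is the first annotated base of Oas1b, so that the match lies between the start sites of the head-to-head pair. The Oas3 window held 1 match, at position -75. No match was found in the 300 bases of Oasl1 and Oasl2, which says only that these letters were not there. Oas1b and Oas2 had no entry. A match is a description of the sequence and not a measured site.

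The libraries were made by BRB-seq, which primes on the poly(A) tail and tags each transcript near its 3′ end with a random UMI, so that a count stands for a molecule and is not larger for a longer transcript. Totals ranged from 922450 to 2923865 UMI counts per sample and were higher with CpG + IFNα (1884673 to 2923865) than in unstimulated cells (922450 to 1103064). Levels are given as CPM, the usual scaling of counts to library size, with TMM factors. They are relative to the whole RNA of a library, and in these bulk samples fewer cells of a type and less RNA per cell cannot be told apart. The 4 B cell markers Ms4a1, Cd79a, Cd79b and Pax5 were detected in all samples, at a summed level of 4757 to 5937 CPM without CpG and of 875 to 1109 CPM with it. The 3 follicular markers summed to 4413 to 5057 CPM in unstimulated cells, 3057 to 3624 CPM with IFNα, 931 to 1105 CPM with CpG and 847 to 972 CPM with CpG + IFNα, and the 5 marginal zone markers to 224 to 231, 89.8 to 124, 43.6 to 57.0 and 27.8 to 37.5 CPM. The sums of both lists were thus lower with IFNα than in unstimulated cells and lower again with CpG. With IFNα the means of the follicular markers Fcer2a (1227 to 244 CPM) and Cr2 (412 to 81.5 CPM) fell, whereas that of Ighd did not (3005 and 2997 CPM). Among the marginal zone markers Cd9 changed little with IFNα (10.1 and 8.56 CPM). The 4 plasma cell markers summed to 244 to 379 CPM in unstimulated cells and to 179 to 271 CPM in the other groups, but they did not move together. In the order unstimulated, IFNα, CpG and CpG + IFNα, the mean was 18.9, 27.1, 1.79 and 1.12 CPM for Sdc1. It was 188, 88.3, 127 and 179 CPM for Irf4. Markers of plasmacytoid dendritic cells, a main source of type I interferon, included Siglech and Klk1, which had 0 counts in all samples. The summed level of the 4 listed was 1.82 to 7.49 CPM in unstimulated cells, 8.39 to 10.1 CPM with IFNα, 6.42 to 19.6 CPM with CpG and 20.0 to 22.1 CPM with CpG + IFNα, of which Cox6a2 held a mean of 18.4 CPM. The 6 myeloid markers summed to 6.18 to 25.7 CPM in unstimulated cells, 6.69 to 13.0 CPM with IFNα, and at most 3.0 CPM in either group with CpG. With IFNα the whole sum was Adgre1 (mean 9.24 CPM, against 1.67 CPM in unstimulated cells), while Lyz2, Csf1r, Itgam, Cd14 and Fcgr1 had 0 counts. The 4 erythroid markers summed to 57.4 to 345 CPM in unstimulated cells, 15.3 to 335 CPM with IFNα, 4.99 to 59.6 CPM with CpG and 5.65 to 72.0 CPM with CpG + IFNα, lower with CpG than without it at each sample number. Mitochondrial and rRNA genes took 6.91% to 11.7% of the counts without CpG and 3.86% to 6.40% with it, highest in IFNα sample 2. With these genes left out, as many members were DEGs in each comparison described here as with them. The part of other cell types in the OAS levels was not tested.

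The OAS genes together were rare in unstimulated FO B cells and abundant after IFNα. Summed over the 8 members, unstimulated samples held 72 to 129 UMI counts (0.00917% ± 0.00219 of all counts, SD, n = 3) and IFNα samples held 1908 to 2999 (0.183% ± 0.00813). With CpG the sum was 60 to 71 counts (0.00388% ± 0.00038), and with CpG + IFNα it was 1163 to 1890 (0.0647% ± 0.00301). None of the 4 ranges of the share overlapped. The order was thus CpG, unstimulated, CpG + IFNα and IFNα, from low to high.

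Oasl1 and Oasl2 belong to the OAS-like branch with ubiquitin-like domains at the C terminus. OASL1 lacks 2-5A synthetase activity and is known in mice as an inhibitor of IRF7 translation. Oasl1 measured 27.3, 34.2 and 44.1 CPM in unstimulated samples and 701, 655 and 702 CPM with IFNα. It measured 25.8, 29.2 and 27.0 CPM with CpG and 403, 408 and 385 CPM with CpG + IFNα. It was the member with the most counts in all 12 samples, and its CpG and unstimulated values overlapped. OASL2, unlike OASL1, keeps synthetase activity. Oasl2 measured 11.8, 11.8 and 15 CPM in unstimulated samples and 501, 441 and 475 CPM with IFNα. It measured 4.30, 2.85 and 2.0 CPM with CpG and 50.7, 72.1 and 69.4 CPM with CpG + IFNα. All 4 groups of Oasl2 were separate.

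OAS3 and OAS2 carry repeated OAS units, and OAS3 is the form that responds best to long double-stranded RNA. Oas3 measured 9.10, 5.35 and 19.4 CPM in unstimulated samples and 436, 396 and 478 CPM with IFNα. It measured 2.46, 2.14 and 2.50 CPM with CpG, and 148, 135 and 158 CPM with CpG + IFNα, so that its 4 groups were also separate. Oas2 measured 4.55, 4.28 and 11.5 CPM in unstimulated samples and 142, 175 and 147 CPM with IFNα. It measured 1.23, 2.14 and 0 CPM with CpG, and 4.36, 10.0 and 10.8 CPM with CpG + IFNα. The last of these lay within the range of unstimulated cells, although the IFNα values of Oas2 were above all of its other values. For the CpG sample with 0 counts, 3 counts would be 1.5 CPM.

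The Oas1 genes encode the short form with a single OAS unit and are duplicated many times in mice. Oas1a, which makes 2-5A, measured 1.82, 4.28 and 1.76 CPM in unstimulated samples and 57.5, 45.6 and 77.1 CPM with IFNα. With CpG it had 1, 0 and 0 UMI counts, and with CpG + IFNα it measured 15.3, 12.4 and 18.5 CPM. Oas1a thus followed the order of Oasl2 and Oas3, with no overlap between its 4 groups. Its unstimulated samples held only 2, 4 and 2 counts. Their separation from the CpG samples lies near or under a limit of 3 counts and is not firm. Oas1b, known as the flavivirus resistance gene, carries a premature stop codon in C57BL/6 and most other laboratory strains. It measured 10.0, 4.28 and 7.94 CPM in unstimulated samples and 42.4, 62.0 and 60.3 CPM with IFNα. It measured 2.46, 3.56 and 0.998 CPM with CpG and 8.73, 8.28 and 11.8 CPM with CpG + IFNα. As for Oas2, the CpG + IFNα values of Oas1b overlapped those of unstimulated cells.

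Oas1c was the member with CpG + IFNα levels below those of unstimulated cells. It measured 15.5, 12.8 and 14.1 CPM in unstimulated samples and 41.4, 45.6 and 35.1 CPM with IFNα. It measured 1.23, 2.85 and 3.0 CPM with CpG and 3.82, 5.52 and 6.68 CPM with CpG + IFNα. Its CpG + IFNα values were all below the unstimulated ones, whereas those of Oas1a, Oas3, Oasl1 and Oasl2 were all above. Oas1g, a close copy of Oas1a, had 0 counts in all 6 samples that were unstimulated or received CpG alone. It had 3, 3 and 11 counts with IFNα and 1, 2 and 1 with CpG + IFNα, and it did not pass the filter on low counts. Over a group, 3 counts would be 0.947 CPM in unstimulated cells and 0.596 CPM with CpG.

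**Figure D1:**
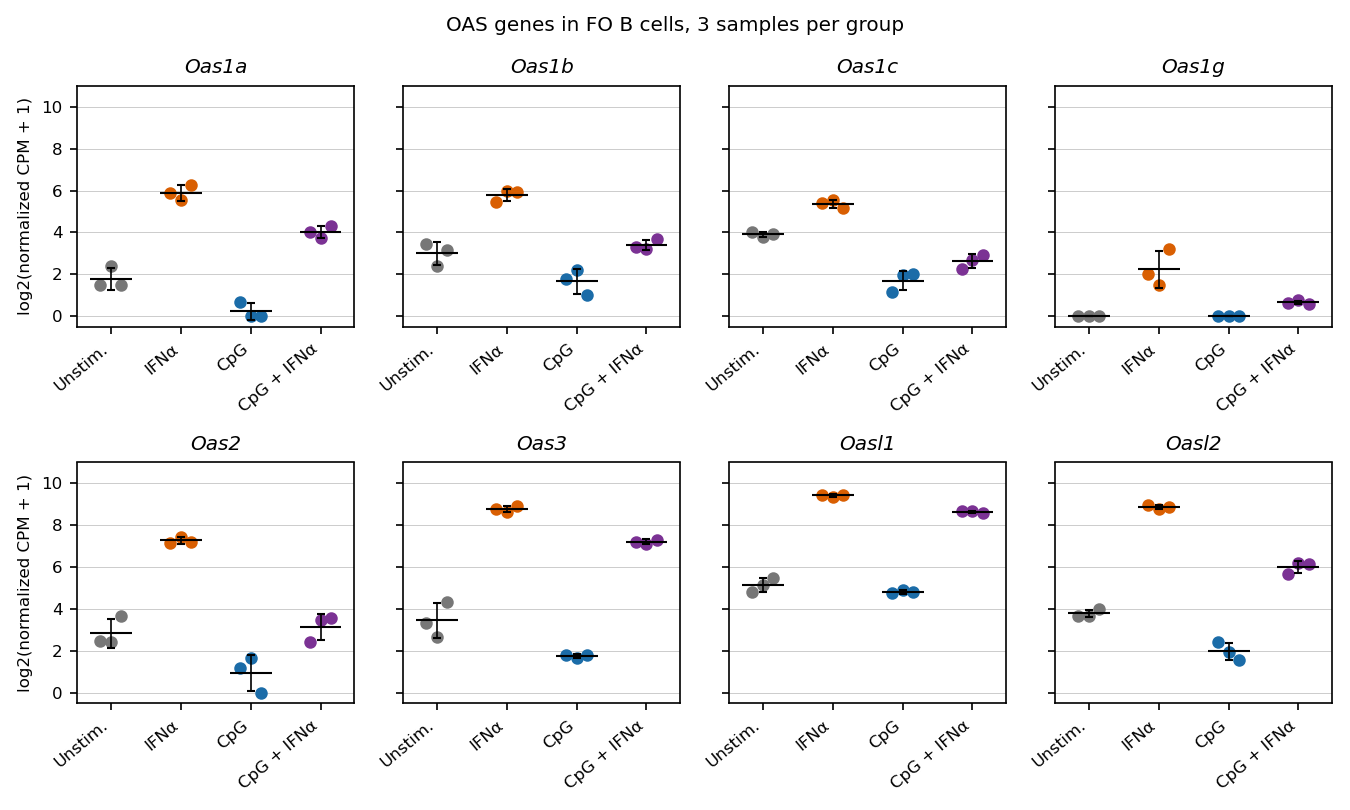
Level of each OAS gene as log2(normalized CPM + 1) on the vertical axis in the 4 groups, with points for the 3 samples of a group, a line for their mean and a bar for the SD. IFNα samples are the highest in all 8 panels, and Oas1c is the panel in which all CpG + IFNα samples lie below the unstimulated ones.

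Some counts cannot be assigned firmly. Of the 81-base windows in the last 500 bases of the annotated transcripts, 43.8% of those of Oas1a (184 of 420) also occur in Oas1g, and 29.0% of those of Oas1g (308 of 1062) occur in Oas1a. Reads of this pair may have been split or dropped. Oas1c shared 0.378% of its windows with other Oas1 genes, and the other members shared 0. Genes annotated on the opposite strand overlap Oas1c (5430 bases), Oas2 (1273 bases) and Oasl1 (38 bases), and the strand setting of the counting is not given in the sources used here. Among other genes of the table with an Oas symbol, Oas1e had 2 UMI counts and Oas1d had 2 in all 12 samples together.

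IFNα alone raised all 7 members tested. DEGs were genes that had an adjusted p under 0.1 by edgeR's quasi-likelihood test with Benjamini-Hochberg adjustment over 9431 genes, and whose log2 fold change exceeded 1 in size. Among all genes tested, 4.56% were up-regulated DEGs and 4.07% were down-regulated (8.63% in either direction). The log2 fold change was 5.22 ± 0.20 (SE; adjusted p = 1.19e-20) for Oas3, 5.18 ± 0.18 (1.2e-21) for Oasl2, and 4.28 ± 0.14 (9.32e-22) for Oasl1. Of the 37 Oas3 counts in unstimulated cells 22 came from sample 3, so that the size of its rise leans on that sample. Oas1a (4.52 ± 0.37, adjusted p = 7.85e-12) and Oas2 (4.47 ± 0.27, adjusted p = 2.67e-15) lay near Oasl1. The smaller changes were those of Oas1b (2.87 ± 0.29, adjusted p = 1.16e-09) and Oas1c (1.52 ± 0.25, adjusted p = 2.14e-05). The median over the 7 members was 4.47, beside -0.00117 over all genes. In the 7 members tested every IFNα sample was above every unstimulated sample, as in 16.4% of all genes tested (16.0% were lower with no overlap). Oas1g, not tested, had counts with IFNα and 0 without. Its IFNα sample 2 (1.82 CPM) lay below what 3 counts would be in an unstimulated sample (2.65 to 3.21 CPM). Pooled over the samples, Oas1g was at least 4.55-fold higher with IFNα, from 17 counts against 0, with the unstimulated group set at 3 counts. Of the 17 counts 11 came from IFNα sample 3, without which the bound was 2.40-fold, and it was 2.92-fold to 2.97-fold without unstimulated sample 3 or 1. The exact 95% interval for counting error began at 3.31-fold. Oas1c did not pass a test against a log2 fold change of 1 (adjusted p = 0.175).

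CpG alone went the other way. Of the 7 members tested, 6 were down-regulated DEGs against unstimulated cells and 0 were up-regulated (0 with an unadjusted p under 0.05 and 0 by DESeq2), with 25.5% of all genes tested down-regulated, 20.1% up-regulated and 45.6% called in either direction. Oas1c fell by 2.54 ± 0.40 on the log2 scale (SE; adjusted p = 1.48e-06 by edgeR), Oas3 fell by 2.25 ± 0.45 (4.86e-05), Oasl2 fell by 2.09 ± 0.39 (1.88e-05) and Oas1b fell by 1.75 ± 0.51 (0.0028). The size of the fall of Oas3 leans on unstimulated sample 3, which held 22 of the 37 unstimulated counts. These values also rest on few CpG counts. They were 2, 4 and 6 for Oas1c, 4, 3 and 5 for Oas3, 7, 4 and 4 for Oasl2, and 4, 5 and 2 for Oas1b. Oas1a and Oas2 had at most 3 counts a sample with CpG, at or under the limit of detection. Their changes are better given as ratios of pooled counts with exact 95% intervals for counting error only. Oas2 was 7.0-fold higher in unstimulated cells (22 against 5 counts, interval 2.58 to 23.6). This ratio was 4.21 without CpG sample 3, 4.46 without unstimulated sample 3 and 12.6 without CpG sample 2. Oas1a was 12.7-fold higher (8 against 1 counts), with an interval of 1.71 to 564 that leaves its size undetermined. It was 7.66-fold higher without CpG sample 3, and at least 2.87-fold higher without CpG sample 1, which held the single count, with CpG set at 3 counts. Both were DEGs, with adjusted p = 0.000618 for Oas2 and 0.00771 for Oas1a by edgeR. Oasl1 was the exception, with a log2 fold change of -0.37 ± 0.19 (adjusted p = 0.0813) that was under the fold threshold. The median over the 7 was -2.25, beside -0.0280 over all genes. Samples did not overlap for the 6 DEGs and overlapped for Oasl1, while 37.1% of all genes tested were lower and 36.1% higher with no overlap. For Oas1a this rests on 2, 4 and 2 counts against 1, 0 and 0, near or under the limit of 3 counts, and is not firm. Oas1g, at 0 counts in both groups, was not compared. In a fit of these 2 groups alone, 3 members passed the filter on low counts and 2 of them, Oas1c and Oasl2, were DEGs.

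Adding IFNα to CpG raised the OAS genes again. Against CpG alone, all 7 members tested were up-regulated DEGs, with 2.95% of all genes tested up-regulated and 2.01% down-regulated (4.96% in either direction). These 7 also had every CpG + IFNα sample above every CpG sample, as did 11.5% of all genes tested (16.7% were lower with no overlap). Oas1g had at most 2 counts in any sample of either group, under the limit of 3 counts a sample, and was left out of this count. Oas3 rose by 5.89 ± 0.25 on the log2 scale (SE; adjusted p = 5.79e-19 by edgeR), Oasl2 by 4.40 ± 0.25 (1.31e-15) and Oasl1 by 3.87 ± 0.14 (5.88e-21). Oas1b rose by 2.07 ± 0.42 (adjusted p = 0.000619). The CpG group held 12 counts of Oas3, 15 of Oasl2 and 11 of Oas1b in all, so that the size of these rises rests on few counts. By pooled counts Oas2 was 8.75-fold higher (58 against 5, interval 3.54 to 27.9) and Oas1a 75.4-fold higher (100 against 1, interval 13.2 to 3007), with adjusted p = 0.000175 and 9.68e-09 by edgeR. Few CpG counts set the size of both ratios. That of Oas2 was 5.27 without CpG sample 3 and 15.8 without CpG sample 2, and that of Oas1a was 45.4 without CpG sample 3 and at least 17.0 without CpG sample 1, with CpG set at 3 counts. Oas1c rose by 1.15 ± 0.43 (adjusted p = 0.0844), a call that was lost with DESeq2 (adjusted p = 0.198). By edgeR it was also lost with each library thinned to the lowest total (adjusted p = 0.302) and without the filter on low counts (0.130). The call was lost as well when any of the 3 CpG samples or CpG + IFNα sample 2 or 3 was left out (log2 fold change 0.86 to 1.40, adjusted p from 0.122 to 0.310). Oas1b did not pass a test against a log2 fold change of 1 (adjusted p = 0.108). In a fit of these 2 groups alone, Oas2 and Oas1c did not pass the filter on low counts, and the 5 members tested were all DEGs. The median over the 7 was 3.87, beside -0.0381 over all genes.

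**Figure D2:**
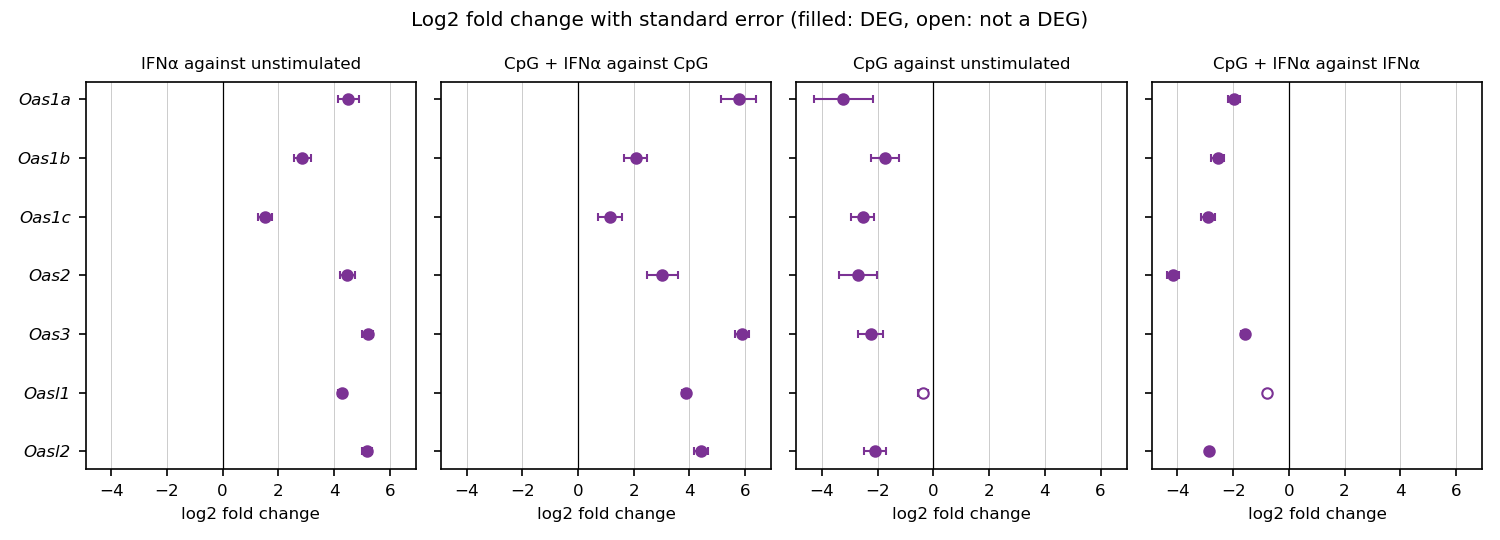
Log2 fold change (horizontal axis, bars for the SE) of the 7 OAS genes tested in 4 comparisons, with filled points for DEGs and open points for the rest. The OAS genes lie right of 0 in both comparisons of IFNα and left of 0 in both comparisons of CpG, where Oasl1 is the open point.

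The level reached with CpG + IFNα stayed below that with IFNα alone. Of the 7 tested, 6 were down-regulated DEGs, with 25.5% of all genes tested down-regulated and 18.7% up-regulated (44.3% in either direction). All 7 members tested, and Oas1g on few counts, had every CpG + IFNα sample below every IFNα sample, as did 37.4% of all genes tested (35.0% were higher with no overlap). Of the 7, Oas2 fell most and decreased by 4.16 ± 0.22 on the log2 scale (SE; adjusted p = 1.34e-17 by edgeR). It was followed by Oas1c, which fell by 2.91 ± 0.26 (adjusted p = 7.8e-12), Oasl2, which fell by 2.86 ± 0.12 (1.07e-19), and Oas1b, which fell by 2.55 ± 0.23 (1.95e-11). Oas1a fell by 1.97 ± 0.22 (1.71e-09) and Oas3 fell by 1.57 ± 0.12 (4.35e-13). Oasl1 was again the member that was not a DEG, with a log2 fold change of -0.78 ± 0.10 that passed the test (adjusted p = 6.35e-08) but not the fold threshold. Oas1g had 17 counts with IFNα and 4 with CpG + IFNα, a ratio of pooled counts of 7.19 (interval 2.35 to 29.4, for counting error only) that was 3.80 without IFNα sample 3. The median over the 7 was -2.55, beside -0.0698 over all genes.

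Against unstimulated cells, CpG + IFNα split the family. Among the 7 tested, 4 were up-regulated DEGs, 1 was down-regulated and 2 were not DEGs, with 20.3% of all genes tested up-regulated, 25.6% down-regulated and 45.9% called in either direction. The 4 that rose were Oas3 (log2 fold change 3.64 ± 0.21, adjusted p = 2.13e-16), Oasl1 (3.50 ± 0.14, 2.8e-20), Oas1a (2.54 ± 0.45, 7.73e-06) and Oasl2 (2.32 ± 0.21, 1.76e-11), by edgeR. Oas1c fell by 1.39 ± 0.33 (adjusted p = 0.000338), although it did not pass a test against a log2 fold change of 1 (adjusted p = 0.105). Oas1b (0.32 ± 0.36, 95% interval -0.51 to 1.16, adjusted p = 0.431) and Oas2 (0.31 ± 0.41, -0.63 to 1.26, adjusted p = 0.501) were not called, and their intervals allow more than a log2 fold change of 1 upwards. The value of Oas2 leans on unstimulated sample 3, which held 13 of the 22 unstimulated counts. Without that sample 6 members had an adjusted p under 0.1 by edgeR, and the same 5 were DEGs. Samples were separate and higher for the same 4 members and separate and lower for Oas1c, beside 36.6% and 37.3% of all genes tested. Oas1g, again at most 2 counts a sample, was left out. The comparisons described share their unstimulated, IFNα, CpG and CpG + IFNα samples with each other and are not independent.

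The effect of IFNα in the presence of CpG was not shown to differ from its effect without CpG for any member. The interaction, which is the log2 fold change of CpG + IFNα against CpG minus that of IFNα against unstimulated cells, gave 0 DEGs among the 7 by edgeR and 0 by DESeq2, and 0 had an unadjusted p under 0.05. Over all genes tested, 6.26% were DEGs of the interaction, 3.09% positive and 3.17% negative. The values ran from -1.45 ± 0.97 for Oas2 to 1.25 ± 1.03 for Oas1a, and the smallest unadjusted p was 0.0716 for Oasl1 (-0.41 ± 0.22, adjusted p = 0.271). Precision was limited where CpG left few counts. The 95% interval was -3.68 to 0.77 for Oas2 and -1.12 to 3.63 for Oas1a, so that effects of several fold in size were not detectable there, while that of Oasl1 ran from -0.91 to 0.10 and that of Oas3 from -0.41 to 1.77.

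**Figure D3:**
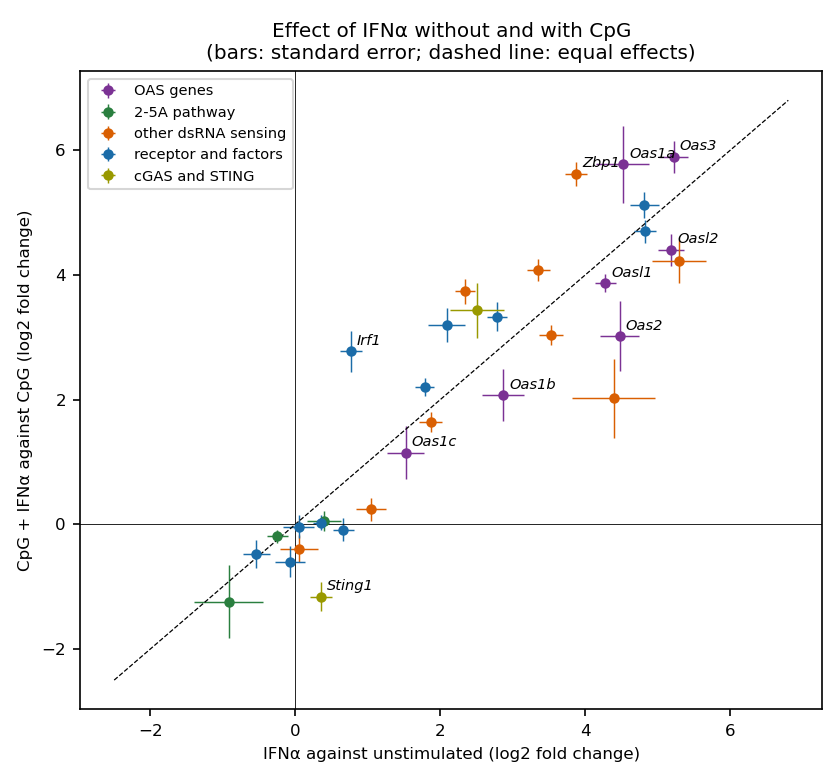
Effect of IFNα with CpG (vertical axis, log2 fold change of CpG + IFNα against CpG) against its effect without CpG (horizontal axis, IFNα against unstimulated) for the OAS genes and the pathway lists, with bars for the SE and a dashed line for equal effects. The OAS genes lie on both sides of the line, whereas Zbp1 and Irf1 lie above it and Sting1 below it.

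The makeup of the OAS transcripts was described by the share of each member in the summed counts of a library. Oasl1 made up 34.1%, 44.4% and 38.8% of the summed OAS counts in unstimulated samples and 36.4%, 35.9% and 35.4% with IFNα. It made up 67.7%, 68.3% and 76.1% with CpG and 63.5%, 62.6% and 58.3% with CpG + IFNα. All 6 samples with CpG were thus above all 6 without it. In the exact two-sided permutation test, in which 3 against 3 samples cannot give a p below 0.1, both CpG groups gave p = 0.1 against unstimulated cells. This was the smallest possible value in 27 of the 40 tests of shares. Oasl2 had the opposite pattern, with a mean share of 24.7% ± 1.14 with IFNα (SD, n = 3) against 9.85% ± 1.63 with CpG + IFNα. Oas3, by contrast, held 22.8% ± 1.19 with IFNα and 22.6% ± 1.75 with CpG + IFNα, a difference within the spread (p = 0.9, exact permutation test). Oas1c contributed 16.1% ± 3.49 in unstimulated cells, but 2.14% ± 0.365 with IFNα and 0.820% ± 0.205 with CpG + IFNα.

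The neighbours Oasl1 and Oasl2 showed this within each library. There were 2.31, 2.91 and 2.94 Oasl1 counts per Oasl2 count in unstimulated samples and 1.40, 1.48 and 1.48 with IFNα. The ratio was 6.0, 10.3 and 13.5 with CpG, from 4 to 7 Oasl2 counts, and 7.95, 5.67 and 5.56 with CpG + IFNα. It was higher in all 6 samples with CpG than in all 6 without, and the ratio within a library does not depend on its total.

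**Figure D4:**
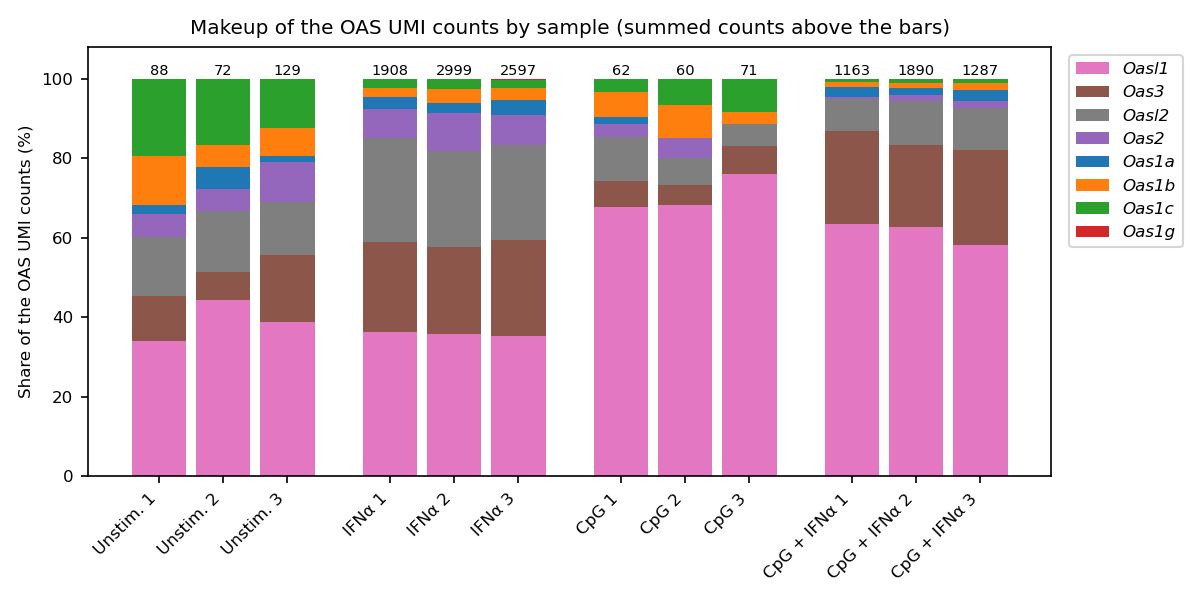
Share of each OAS gene in the summed OAS UMI counts of a sample (vertical axis, percent), with a stacked bar for each of the 12 samples and the summed count above it. The Oasl1 part is larger in the 6 samples with CpG, at 58.3% to 76.1%, than in the 6 without, at 34.1% to 44.4%.

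The 3 genes of the 2-5A pathway list were all DEGs with CpG, as were 45.6% of all genes tested. ABCE1 is known as a ribosome recycling factor. Abce1 measured 99.2, 82.4 and 93.5 CPM in unstimulated samples, 77.7, 68.7 and 87.0 CPM with IFNα, 369, 354 and 332 CPM with CpG, and 292, 315 and 316 CPM with CpG + IFNα. It rose by 1.93 ± 0.12 with CpG (adjusted p = 2.66e-15) and by 1.74 ± 0.12 with CpG + IFNα (adjusted p = 2.62e-14), and IFNα alone gave -0.25 ± 0.14 (adjusted p = 0.243). PDE12 and AKAP7 are phosphodiesterases that break down 2-5A. Pde12 measured 20.9, 15 and 17.6 CPM in unstimulated samples and 40.5, 40.6 and 41.9 CPM with CpG, a rise of 1.19 ± 0.21 (adjusted p = 6.17e-06). Akap7 measured 10.0, 13.9 and 7.06 CPM in unstimulated samples, and it fell by 1.33 ± 0.48 with CpG (adjusted p = 0.0139) and by 2.57 ± 0.53 with CpG + IFNα (adjusted p = 7.05e-05). Of these 3 genes, 2 were up-regulated and 1 was down-regulated with CpG and also with CpG + IFNα, beside 20.1% up-regulated and 25.5% down-regulated among all genes with CpG and 20.3% and 25.6% with CpG + IFNα. With IFNα alone 0 of the 3 were DEGs by edgeR and 0 by DESeq2, and 0 had an unadjusted p under 0.05. In CpG + IFNα against CpG, 0 of the 3 were DEGs by edgeR and 0 by DESeq2, and 1 had an unadjusted p under 0.05.

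**Figure D5:**
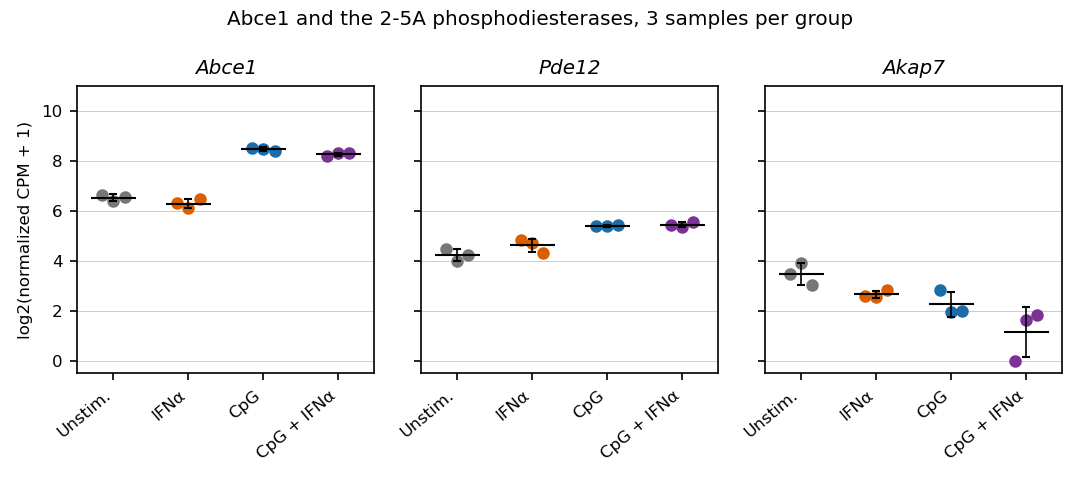
Level of Abce1, Pde12 and Akap7 as log2(normalized CPM + 1) on the vertical axis in the 4 groups, with points for the 3 samples, a line for the mean and a bar for the SD. Abce1 and Pde12 are higher in all 6 samples with CpG than in all 6 without, and 1 CpG + IFNα sample of Akap7 is at 0.

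Most other sensors of double-stranded RNA rose with IFNα as well. Of 9 tested, 8 were up-regulated with IFNα (median log2 fold change 3.35) and 7 in CpG + IFNα against CpG (median 3.04), beside 4.56% and 2.95% of all genes tested. Eif2ak2, which encodes the kinase PKR, rose by 3.53 ± 0.16 with IFNα (adjusted p = 2.87e-18 by edgeR), and Ifih1, which encodes MDA5, rose by 5.29 ± 0.37 (1.31e-13). Ifih1 had 6, 2 and 0 counts in unstimulated samples, so that the size of its rise rests on few counts. With CpG alone 3 of the 9 fell, a share near the 25.5% of all genes tested. These were Ddx58, which encodes RIG-I and fell by 3.72 ± 0.22 (adjusted p = 4.41e-16), its regulator Dhx58, which fell by 1.47 ± 0.25 (4e-06), and Zbp1, a sensor of Z-form nucleic acids, which fell by 2.60 ± 0.27 (2.67e-10). Mavs, the adaptor of RIG-I and MDA5, was not a DEG in any of the 6 comparisons (adjusted p from 0.294 to 0.933). In CpG + IFNα against unstimulated cells, 5 of the 9 were up-regulated (20.3% of all genes), and against IFNα 4 were down-regulated (25.5% of all genes).

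Most genes of the list of interferon receptor chains, their kinases, transcription factors and brakes also fell with CpG. Of the 11, 9 were down-regulated DEGs by edgeR with CpG alone and 0 were up-regulated (0 with an unadjusted p under 0.05 and 0 by DESeq2), beside 25.5% and 20.1% of all genes tested. Stat2 fell by 3.49 ± 0.24 (adjusted p = 2e-14 by edgeR), Irf9 fell by 1.34 ± 0.16 (1.14e-08) and Irf7, an amplifier of interferon responses, fell by 2.35 ± 0.23 (7.28e-11). The receptor chain Ifnar1 fell by 1.33 ± 0.23 (adjusted p = 4.51e-06), whereas Ifnar2 gave -0.07 ± 0.21 (adjusted p = 0.769). IFNα alone raised 5 of the 11 (4.56% of all genes), and IFNα on top of CpG raised 6 (2.95% of all genes), with Stat2 up by 3.33 ± 0.23 (1.22e-13) and Irf9 up by 2.21 ± 0.14 (3.28e-14). Against IFNα alone, 7 of the 11 were down-regulated with CpG + IFNα (25.5% of all genes), Stat2 by -2.93 ± 0.13 (adjusted p = 1.78e-19). The brake Usp18 rose by 4.81 ± 0.20 with IFNα (1.52e-19) and by 5.13 ± 0.21 when IFNα was added to CpG (1.33e-19). Cgas, which encodes the DNA sensor cGAS, a nucleotidyltransferase related to OAS, rose by 2.51 ± 0.37 with IFNα (3.18e-06) and by 3.43 ± 0.44 in CpG + IFNα against CpG (3.02e-07), and it fell by 1.72 ± 0.63 with CpG alone (0.0162). It had 1, 1 and 4 counts with CpG and 4, 4 and 5 in unstimulated samples, so that the size of these changes rests on few counts. Sting1, which encodes STING, the downstream receptor of cGAS, fell by 1.88 ± 0.19 with CpG (1.24e-10) and fell by a further 1.16 ± 0.24 when IFNα was added to CpG (0.000626).

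The genes beside the OAS clusters were also counted. Within 200 kb of a member, 16 further genes were tested, and 0 were up-regulated DEGs with IFNα or in CpG + IFNα against CpG by edgeR or by DESeq2. With 4.56% and 2.95% of all genes up-regulated, a count of 0 among 16 is near the background and is no result about these genes. At an unadjusted p under 0.05, 1 of them was higher with IFNα and 0 in the other comparison. Of the 16, 1 was down-regulated with IFNα, beside 4.07% of all genes, and 6 with CpG, beside 25.5%. Across the 12 samples, likeness of pattern was measured as the root mean square difference of log2(CPM + 1) after centring each gene, and it is a description without a test. With a pseudocount of 4 in place of 1, 9 of the 21 nearest genes named were shared, all 3 for Oas3 and 0 for Oas1c and Oas2, so that most of these names depend on the pseudocount. Oasl2 was closest to Irf7 (0.286), Ifit2 (0.553) and Rsad2 (0.584), and Oas3 to Rsad2 (0.350), Ifit1 (0.434) and Rtp4 (0.454). Oasl1 was closest to Mpeg1 (0.397), Parp12 (0.409) and Eif2ak2 (0.441), and Oas1a to Ifi47 (0.353), Sdc3 (0.359) and Igtp (0.389). Oas2 had no gene as near, with Ifit1bl1 first at 0.750. Oas1c was closest to Gm8369 (0.289), Evi2a (0.336) and Gbp8 (0.345), and Oas1b to H2-T22 (0.355), Dtx3l (0.456) and Gvin1 (0.473). Among the members themselves, the closest pair was Oas1a and Oasl2 (0.590), and the farthest was Oas1c and Oas3 (2.19). The head-to-head pair Oas1b and Oas1c differed by 0.757.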

How the data were processed

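Per the labels and the study's methods, the authors extracted barcodes with UMI-tools 1.1.2, trimmed reads with Trim Galore 0.6.7, mapped them to GRCm38 with HISAT2 2.2.1 and assigned them to genes with featureCounts 2.0.1. They deposited UMI counts per gene for 22561 genes in 12 samples, without normalization. The release of their annotation is not given in the sources used here, and all 22561 identifiers were found in GENCODE M21, used for positions. Promoters came from RefSeq (GRCm38.p6).

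TMM factors were computed from these counts with edgeR 4.0.16 (R 4.3.3), which kept 9431 genes with filterByExpr by group, and the genes were tested with glmQLFit and glmQLFTest in a fit of all 4 groups (8 residual degrees of freedom), with Benjamini-Hochberg adjustment. Of the 8 members 7 passed the filter, and Oas1g did not. A member that passes through the group where it is high is likely to differ, so the counts over those tested are not evidence about the family as a whole. Levels are CPM scaled by TMM. A count of 3 was taken as the limit of detection in a sample, or over a group where counts were pooled, and intervals on pooled counts cover counting error only.

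Genes named are the members, the genes of 4 pathway lists, and for each member the 3 genes of most similar pattern. The members and the lists were chosen with earlier results of these data known. The lists held Abce1, Pde12 and Akap7 of the 2-5A pathway; 10 other sensors of double-stranded RNA or their adaptors, of which Prkra was not tested; 11 genes of the interferon receptor and its factors; and Cgas and Sting1. Some genes first placed on these lists and on a marker list are not reported here and were left out of the counts. Alternatives were DESeq2 1.42.0, other scalings, filters and thresholds, a fit of only the groups compared, the replicate number as a block, each library thinned to the lowest total, and leaving out 1 sample at a time. Replicates were compared in 12 pairs, and chi-square divided by its degrees of freedom was 1.90 to 6.31, above counting noise in each, so that none was taken as a copy. The highest values, 4.48 to 6.31, were those of the pairs that held IFNα sample 2 or CpG + IFNα sample 2. The test was checked on simulated counts in which genes were changed by a known fold in the CpG + IFNα group alone.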

Additional observations from a re-analysis of the deposited data

Results flagged for a closer look

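For 5 of the 25 pathway genes tested, the effect of IFNα with CpG differed from its effect without CpG, as tested by the interaction term in edgeR with adjustment over 9431 genes, of which 6.26% were called. Values are differences between the 2 log2 fold changes, in the direction with CpG minus without CpG. Irf1, a transcription factor of interferon-stimulated genes, had 2.01 ± 0.38 (SE; adjusted p = 0.000567), a size that rests on 10, 2 and 5 counts in the CpG samples. Zbp1 had 1.75 ± 0.30 (adjusted p = 0.000111), and Ddx58, which encodes RIG-I, had 1.39 ± 0.27 (adjusted p = 0.000785). Socs1, a feedback inhibitor of JAK kinases, had 1.11 ± 0.42 (adjusted p = 0.0971), and was no longer called with DESeq2 (adjusted p = 0.161) or without 9 of the 12 samples in turn (adjusted p from 0.104 to 0.496). Sting1, the receptor of the cGAS product, had -1.52 ± 0.28 (adjusted p = 0.000402), with 10.9, 7.93 and 12.3 CPM with CpG + IFNα, 26.4, 22.1 and 20.0 CPM with CpG, and 113, 95.5 and 114 CPM with IFNα. In edgeR's test against a log2 fold change of 1 all 5 calls were lost. The adjusted p was 0.150 for Irf1, 0.153 for Zbp1, 0.492 for Sting1 and 0.891 for Ddx58. None of these genes is an OAS gene.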

How the results depend on the processing

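No member changed direction under the alternatives, and of 953 values 934 kept their side of the threshold. With the replicate number as a block, 7, 6, 5, 7, 6 and 0 members were DEGs in IFNα, CpG and CpG + IFNα against unstimulated cells, in CpG + IFNα against CpG and against IFNα, and in the interaction, as without it. Same-numbered samples correlated from -0.0653 to 0.201 over 18 pairs, 5 of them over 0.1, so that the numbers were not taken to pair the samples, for which every pair had to be over 0.1. There were hints of pairing in the data, since 10 of 12 samples correlated best with their own number, and the summed level of 4 erythroid markers was highest in the sample numbered 1 (59.6 to 345 CPM) and lowest in that numbered 3 (4.99 to 57.4 CPM) in all 4 groups. In CpG against unstimulated cells, a fit of only the groups compared called 2 members instead of 6, because 3 passed the filter. Without the filter on low counts, Oas1g was also a DEG with IFNα (8 members) and in CpG + IFNα against IFNα (7 members), and Oas1c was lost in CpG + IFNα against CpG. Oas1c was lost there with DESeq2 and with each library thinned to the lowest total as well. Leaving out each sample gave 6 to 7 members in that comparison and the same counts in the others. Over all genes, a log2 fold change over 2 left 251 of 814 DEGs with IFNα, 1677 of 4303 with CpG, 1826 of 4329 with CpG + IFNα, 165 of 468 in CpG + IFNα against CpG, 1698 of 4175 against IFNα, and 155 of 590 in the interaction. A test against a log2 fold change of 1 left 324 with IFNα, 195 in CpG + IFNα against CpG and 98 in the interaction. The balance of the DEGs moved with the threshold and the scaling. Higher genes were 59.4% of the DEGs in CpG + IFNα against CpG, but 90.9% at a log2 fold change over 2 and 90.8% in the test against 1. With IFNα they were 52.8%, 64.1% and 64.2% in the same order, 45.3% with scaling by library size only and 45.2% without IFNα sample 2. At a log2 fold change over 2 they went from 44.1% to 32.1% with CpG, from 44.3% to 33.1% with CpG + IFNα and from 42.3% to 31.6% in CpG + IFNα against IFNα. Positive genes were 49.3% of the DEGs of the interaction, and 56.0% to 64.3% with DESeq2, library size only, no rRNA and mitochondrial genes, no filter, either threshold, or without unstimulated sample 3. Among pathway genes, 6 values changed sign. Pde12 in CpG + IFNα against CpG went from 0.05 to -0.20 with counts drawn down and to -0.000215 without CpG + IFNα sample 3, in a range of -0.000215 to 0.10 over the samples left out. The interaction of Abce1 went to -0.00801 and -0.0442 without unstimulated sample 1 or IFNα sample 2 (range -0.0442 to 0.14), and that of Akap7 to 0.10 and 0.13 without CpG sample 1 or CpG + IFNα sample 1 (range -0.69 to 0.13). With a pseudocount of 4 in place of 1, 9 of the 21 most similar genes were shared. Depth limited Oas1a, Oas1g and Oas2 with CpG, at 0 to 3 counts per sample. Oas1b, Oas1c, Oas3 and Oasl2 were also low there, at 2 to 7 counts per sample.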
